A study of Mus musculus with 6 samples.

Results

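The tumour necrosis factor (TNF) superfamily was followed in 2 orthotopic mouse models of pancreatic cancer and in normal pancreas. Its members were taken by gene symbol: every row of the authors' 2 comparison tables named Tnfrsf or Tnfsf followed by a number, together with Tnf, Lta, Ltb, Ltbr, Fas, Fasl, Cd27, Cd40 and Ngfr. This gave 39 of the 27179 counted genes, of which 24 are receptors, 14 are ligands and 1, Tnfsf13os, is an antisense transcript that matched by name. All 39 had enough reads to be tested. Other family genes were not analysed here.

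The study compared 3 groups of C57BL/6 material, with 2 libraries each (n = 2 in every mean, SD and test). H7 tumours grew from PANC02-H7 cells and UNKC tumours from UN-KC-6141 cells, both mouse pancreatic cancer lines placed surgically into the pancreas of untreated C57BL/6 mice, with tumours collected 20 days later. The third group was whole normal pancreas of the same strain. Each tumour group is 1 line grown in immunocompetent hosts, so its RNA holds cancer cells and host cells together. Values are CPM (counts scaled to the effective library size), and every adjusted p below is from the edgeR quasi-likelihood test with Benjamini-Hochberg adjustment over 16306 genes.

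Ligands of this superfamily are mostly trimeric type II membrane proteins that bind cysteine-rich receptors on neighbouring cells. Receptors with a death domain recruit FADD or TRADD and can lead to caspase activation or to inflammatory signalling. Receptors with TRAF-binding motifs lead to NF-kB and kinase signalling, and decoy receptors bind ligand without passing on a full signal. In pancreas and its tumours the family is known for inflammation, stromal remodelling and co-stimulation of lymphocytes.

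The depth was unequal between the groups. The 4 tumour libraries held 33332516 to 40507546 reads and the normal libraries 12077320 and 8204225, of which ribosomal RNA took 86.35% and 85.05%. Only 775599 and 697074 reads of the normal libraries lay outside ribosomal RNA, Lars2 and unnamed genes. The members together had 21491 and 22815 reads in H7 tumours, 30327 and 27734 in UNKC tumours, and 204 and 222 in normal pancreas. In normal pancreas 12 members had no read in either library, 11 had 1 to 6 reads in all and 16 had more than 6. A group without a read is treated as lying below a floor of 3 read pairs (6 reads) over its libraries, which is 1.41 CPM in normal pancreas, 0.0408 CPM in H7 tumours and 0.0341 CPM in UNKC tumours. The labelled tissue held its defining markers: the 8 acinar markers summed to 11987 and 11623 CPM in normal pancreas and to 3.92 to 30.5 CPM in tumours. Skeletal muscle markers set 1 library of each tumour group apart, at 576 CPM in H7 tumour 2 and 2086 CPM in UNKC tumour 2 against 1.52 and 1.11 CPM in their partners.

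Summed over the family, the tumours stood above normal pancreas in the receptors, while the ligands lay close to it. The 24 receptors summed to 287 and 266 CPM in H7 tumours, 306 and 297 CPM in UNKC tumours, and 70.3 and 78.2 CPM in normal pancreas. The 14 ligands summed to 23.3 and 26.4 CPM in H7 tumours, 29.9 and 27.7 CPM in UNKC tumours, and 24.1 and 26.7 CPM in normal pancreas. In the receptor sums the tumour and normal libraries did not overlap, whereas in the ligand sums H7 and normal libraries did.

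Against normal pancreas, 12 of 39 members (30.8%) rose in H7 tumours and 2 fell, beside 29.6% and 21.9% of all genes tested (51.5% in either direction). In UNKC tumours 11 members (28.2%) rose and 3 fell, beside 29.1% and 19.3% of all genes tested (48.4% in either direction). The share of members that rose was therefore near the background in both comparisons. By class, 10 of 24 receptors rose in H7 tumours and 1 fell, and 10 rose and 2 fell in UNKC tumours. Of 14 ligands, 2 rose and 1 fell in H7 tumours, and 1 rose and 1 fell in UNKC tumours. Libraries did not overlap for 30 members in H7 against normal and for 28 in UNKC against normal, where 76.9% and 76.6% of all genes did not. Among members with a defined fold, the median log2 difference from normal was 0.53 in H7 tumours and 0.38 in UNKC tumours, taking genes without a normal read at their lower bound and leaving out those under the floor. As fitted, with all 39, it was 1.15 and 1.35, and the median of all genes tested was 0.34 and 0.42. Both comparisons use the same 2 normal libraries. How much of any difference comes from a change in the number of cells of a type and how much from RNA per cell cannot be told apart in bulk tissue.

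**Figure D1:**
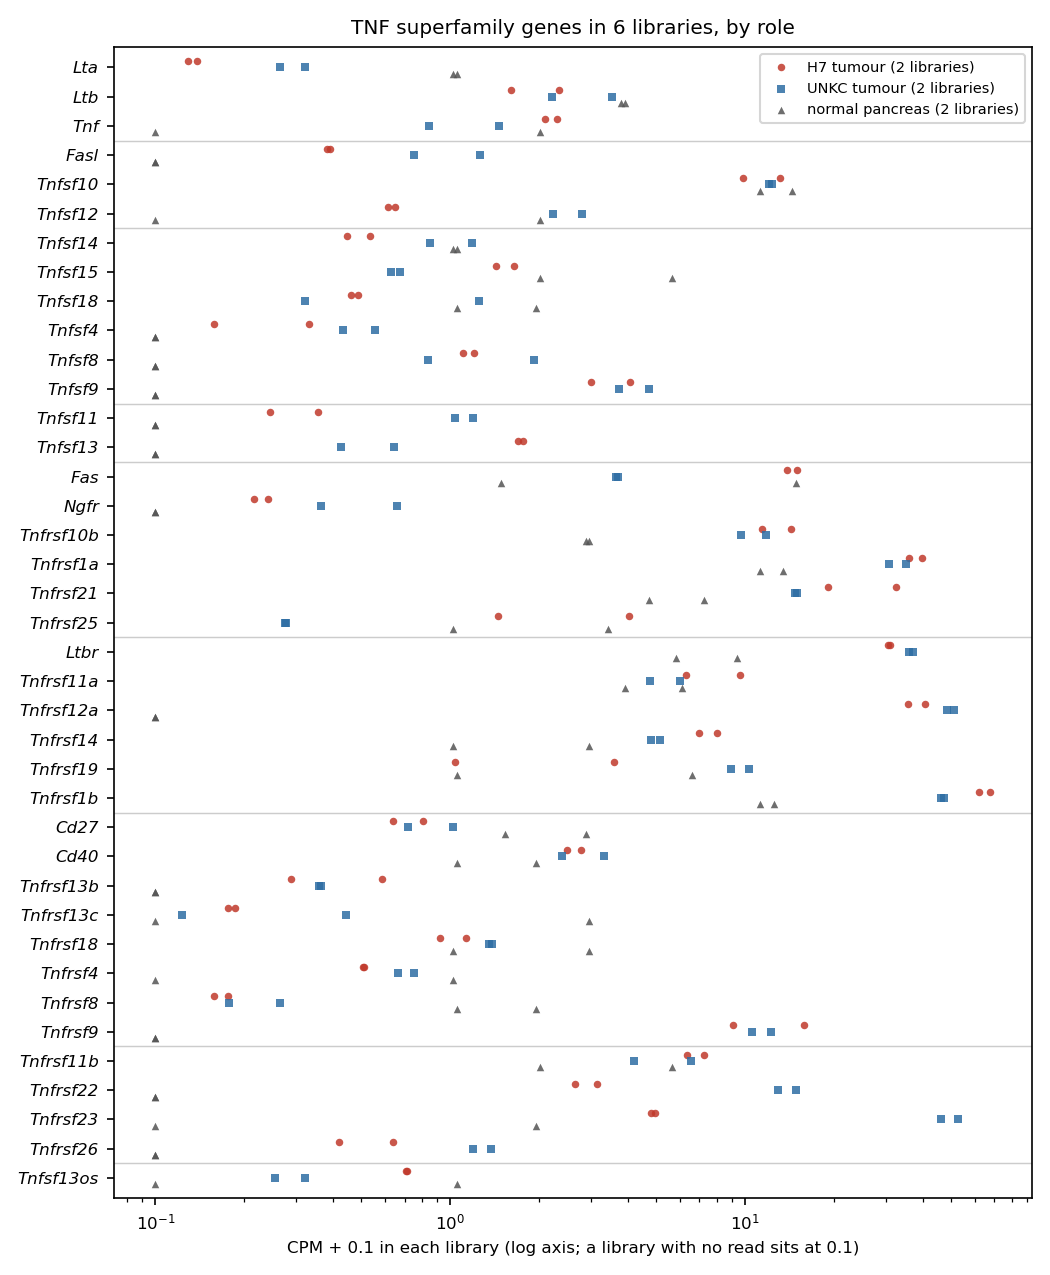
CPM of the 39 members in each of the 6 libraries (log axis of CPM + 0.1, so that a library without a read sits at 0.1; points are libraries, coloured by group, and rows are members by class). Tnfrsf12a, Tnfrsf1b, Tnfrsf1a and Ltbr sit above 30 CPM in all 4 tumour libraries, and Tnfrsf23 does so in the UNKC libraries and not in the H7 libraries.

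The receptors that bind TRAF adaptors in many cell types held several of the members that rose. In this class 4 of 6 receptors (Tnfrsf12a, Tnfrsf1b, Ltbr and Tnfrsf14) rose in both tumours and none fell, beside 29.6% (H7) and 29.1% (UNKC) of all genes tested that rose. Tnfrsf12a, the Fn14 receptor of the ligand TWEAK, is a small receptor known to be induced by growth factors and injury. It had 35.6 and 40.6 CPM in H7 tumours, 51.1 and 48.3 CPM in UNKC tumours, and no read in either normal library. All 4 tumour libraries were thus far above the normal floor. H7 tumours were at least 27.1-fold higher than normal pancreas (adjusted p = 0.000156), and UNKC tumours at least 35.3-fold higher (adjusted p = 0.000149). Per kilobase of transcript it had the highest level of the family in both tumours, at 39.5 CPM per kb in H7 and 51.5 in UNKC tumours, with Tnfrsf1a next in H7 (17.5) and Ltbr next in UNKC tumours (17.4). The H7 to UNKC log2 difference of -0.38 ± 0.15 (SE) did not pass the test (adjusted p = 0.156). The authors' deposited table gives log2 fold changes of 7.71 for H7 and 8.15 for UNKC against normal.

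Tnfrsf1b is the second TNF receptor, found mainly on myeloid, endothelial and regulatory T cells. Its level was 67.7 and 62.1 CPM in H7 tumours, 46.1 and 47.2 in UNKC tumours, and 11.1 and 12.4 in normal pancreas. The 3 groups did not overlap. It rose by 2.47 ± 0.15 on the log2 scale in H7 tumours (adjusted p = 0.000161) and by 1.99 ± 0.15 in UNKC tumours (adjusted p = 0.000264). The H7 to UNKC log2 difference was 0.48 ± 0.13, with an adjusted p of 0.0519 that missed the threshold. Of 7 macrophage and monocyte markers 6 rose in each tumour, beside 29.6% (H7) and 29.1% (UNKC) of all genes tested that rose. Their sum was 767 and 576 CPM in H7, 396 and 410 in UNKC and 98.6 and 185 in normal libraries. Between the tumours 1 marker was called higher and 1 lower in H7. Mean levels were higher in H7 than in UNKC tumours for Lyz2 (382 and 180 CPM), Csf1r, Adgre1 and Cd68. They were lower for Cd14 (19.4 and 45.9 CPM), Mrc1 (41.6 and 66.2 CPM) and Itgam. The part of these markers in the result was not tested.

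Ltbr, the receptor of membrane lymphotoxin and LIGHT, is known for lymphoid organ formation and the non-canonical NF-kB pathway. It had 30.5 and 30.9 CPM in H7 tumours, 35.8 and 36.9 in UNKC tumours, and 9.25 and 5.72 in normal pancreas. It rose by 2.03 ± 0.23 in H7 tumours (adjusted p = 0.000885) and by 2.28 ± 0.23 in UNKC tumours (adjusted p = 0.000668) on the log2 scale. Tnfrsf14, the HVEM receptor that both LIGHT and the lymphocyte protein BTLA bind, had 6.89 and 7.92 CPM in H7, 5.03 and 4.69 in UNKC and 0.925 and 2.86 in normal libraries. No tumour library overlapped the normal libraries, which held 2 and 6 reads of it. In the authors' deposited table it did not pass in either tumour, at log2 1.40 in H7 (adjusted p = 0.0509) and 0.83 in UNKC tumours (adjusted p = 0.222). In the edgeR fit its log2 rise was 1.98 ± 0.45 in H7 tumours (adjusted p = 0.0119), a call lost only without H7 tumour 2 among the 14 other settings. In UNKC tumours it was 1.37 ± 0.46 with an adjusted p of 0.0499, a call that was lost in 12 of 14 other settings (adjusted p from 0.0055 to 0.142).

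The other 2 receptors of this class did not pass against normal. Tnfrsf11a, the RANK receptor of osteoclasts and dendritic cells, had 9.54 and 6.20 CPM in H7, 4.64 and 5.94 in UNKC and 6.02 and 3.82 in normal libraries. Tnfrsf19, an orphan receptor of epithelial progenitors, had 8.84 and 10.2 CPM in UNKC tumours but spread widely elsewhere, at 0.941 and 3.48 CPM in H7 and 6.48 and 0.954 CPM in normal libraries. Its H7 to UNKC log2 difference was -2.10 ± 0.69 (adjusted p = 0.0938). Its higher H7 library is also the one with skeletal muscle markers at 576 CPM, and the part of these was not tested.

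**Figure D2:**
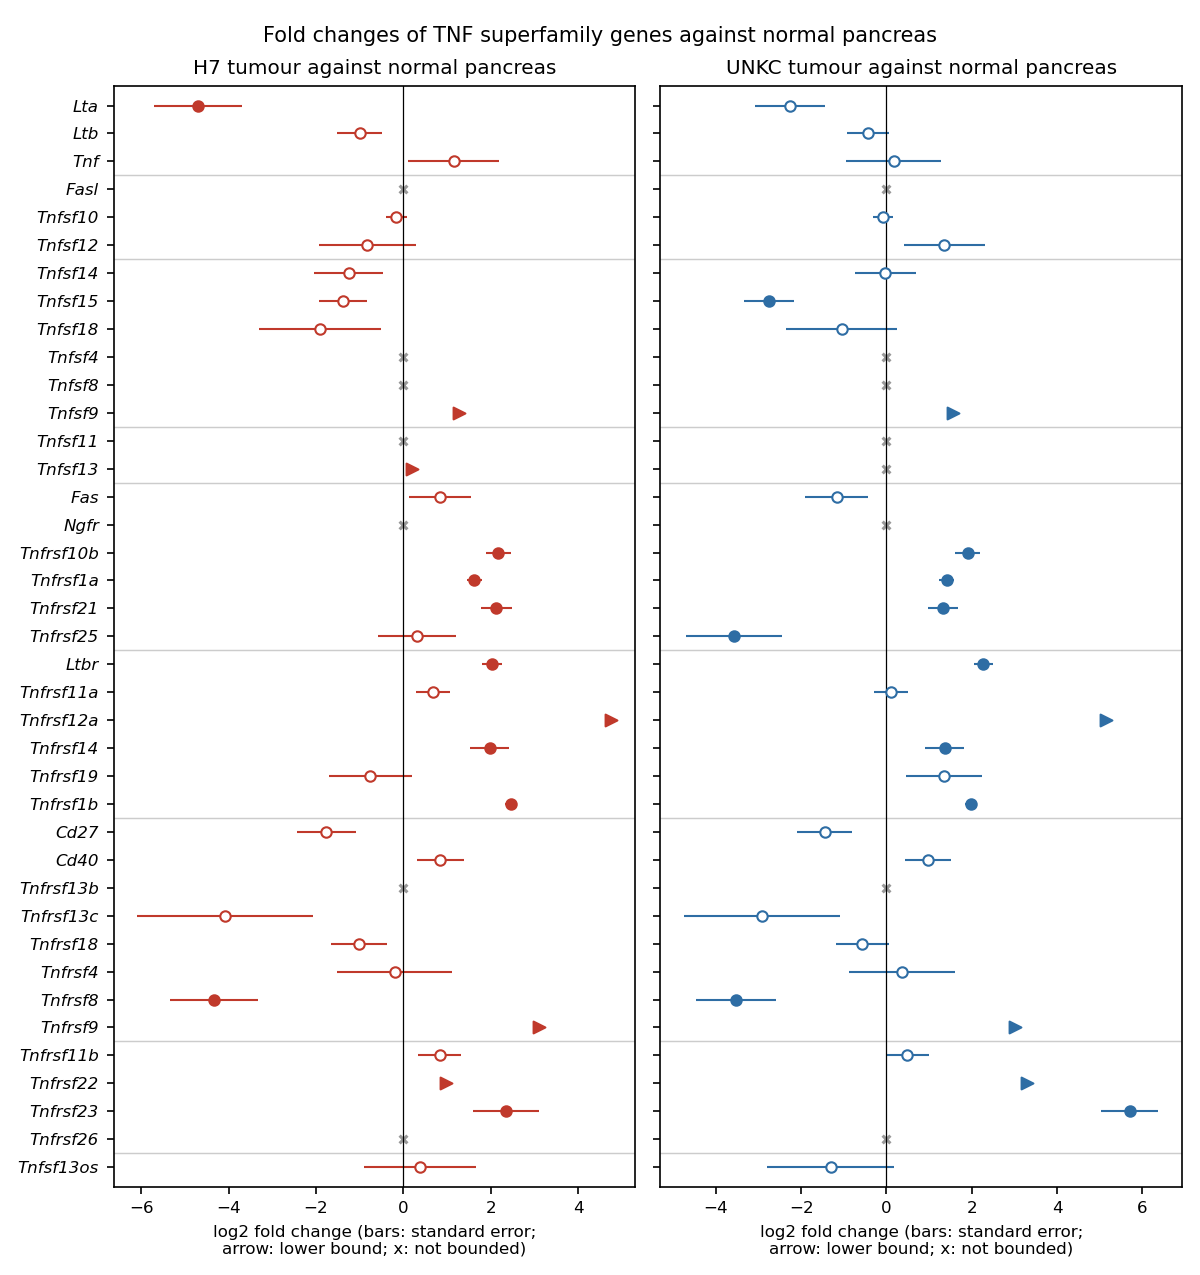
Log2 fold change of each member against normal pancreas in H7 and UNKC tumours (filled points passed the test, bars are standard errors, right-pointing triangles are lower bounds where normal pancreas had no read, and a grey cross marks a gene without a bound). Tnfrsf12a has the largest bound in both tumours, and Tnfrsf23 lies at 2.35 in H7 and 5.71 in UNKC tumours.

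Among receptors with a death domain, 3 of 6 rose in both tumours and Tnfrsf25 fell in UNKC tumours, beside 29.6% (H7) and 29.1% (UNKC) of all genes tested that rose and 21.9% and 19.3% that fell. Tnfrsf1a, the broadly expressed TNF receptor that signals through TRADD, had 35.8 and 39.6 CPM in H7, 30.5 and 34.9 in UNKC and 11.1 and 13.4 in normal libraries. It rose by 1.62 ± 0.18 (adjusted p = 0.000799) and 1.42 ± 0.18 (adjusted p = 0.00137) on the log2 scale. Tnfrsf10b, the only TRAIL receptor of the mouse that carries a death domain, had 14.2 and 11.3 CPM in H7, 11.6 and 9.56 in UNKC and 2.78 and 2.86 in normal libraries. Both tumours were above normal in every library. Its log2 rise was 2.18 ± 0.29 in H7 (adjusted p = 0.00175) and 1.91 ± 0.29 in UNKC tumours (adjusted p = 0.00307). Tnfrsf21, also called death receptor 6, had 32.5 and 19.0 CPM in H7, 14.6 and 14.9 in UNKC and 4.63 and 7.15 in normal libraries. The rise was 2.13 ± 0.36 in H7 tumours (adjusted p = 0.00409) and 1.33 ± 0.36 in UNKC tumours (adjusted p = 0.0251), and the latter was lost with upper-quartile scaling and without normal library 1 or either UNKC library (adjusted p from 0.018 to 0.0986 over the 14 settings).

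Fas, the death receptor of cytotoxic lymphocytes, differed most between the 2 normal libraries. It had 14.9 and 13.8 CPM in H7 tumours, 3.54 and 3.62 CPM in UNKC tumours, and 1.39 and 14.8 CPM in normal pancreas, from 3 and 31 reads. The tumour libraries were tight within each line, and the normal libraries bracketed all 4 of them except H7 tumour 1. Neither tumour passed against normal: the log2 difference was 0.83 ± 0.71 in H7 (adjusted p = 0.369) and -1.17 ± 0.73 in UNKC tumours (adjusted p = 0.238). Without normal library 1 these values were -0.020 and -2.02, and without normal library 2 they were 3.40 and 1.40, so the direction against normal rested on which normal library was used. The H7 level was 3.99-fold that of UNKC tumours (log2 2.00 ± 0.62, adjusted p = 0.0787), and 7 of 14 other settings passed this difference (adjusted p from 0.00191 to 0.333). Its ligand Fasl had 0.290 and 0.282 CPM in H7, 0.653 and 1.16 CPM in UNKC and no read in normal libraries, and the H7 to UNKC log2 difference was -1.65 ± 0.49 (adjusted p = 0.0829).

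Tnfrsf25, death receptor 3, is a T cell receptor of the ligand TL1A. It had 3.94 and 1.35 CPM in H7 tumours, 0.177 and 0.176 CPM in UNKC tumours, and 0.925 and 3.34 CPM in normal pancreas. Both UNKC libraries lay below every other library. It was 14.5-fold higher in H7 than in UNKC tumours (log2 3.88 ± 0.68, adjusted p = 0.0142) and fell by 3.57 on the log2 scale in UNKC tumours against normal (SE 1.13, adjusted p = 0.0415). The fall against normal was lost in 6 of 14 other settings: with upper-quartile factors, no filter or the replicate block, without either UNKC library, and without normal library 2, where it was -2.35 (adjusted p = 0.352, over 14 settings from 0.000172 to 0.352). The sum of 8 T and NK cell markers went the other way between the tumours, at 8.51 and 11.999 CPM in H7 and 23.1 and 25.1 CPM in UNKC libraries. Of these markers 1 was called lower and 0 higher in H7 than in UNKC tumours. Mean levels in H7 and UNKC tumours were 0.209 and 0.180 CPM for Ncr1 and 0.334 and 0.250 CPM for Klrb1c. Those of the other markers were lower in H7 tumours. Ngfr, the neurotrophin receptor, had 0.116 to 0.562 CPM in tumours and no read in normal pancreas.

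The RefSeq sequence (GRCm38.p6) of the 250 bases before the annotated start is shown for 2 receptors of this text in which a kappa B match was found. A match to the NF-kB letters, which are GGGNN followed directly by TTTCC, on either strand occurred in 3 of the 33 promoters that covered 30 members (Ltb, Tnfrsf25 and Tnfrsf9) and in 1.41% of all 32851 promoters of this length. The AP-1 letters TGANTCA occurred on either strand in 5 (Fas, Tnfrsf8, Tnfrsf9, Tnfsf13 and Tnfsf14) and in 6.75% of all. No position of one motif was shared with another in the sequences printed. Capitals mark the matches, and that of Tnfrsf25 lies on the strand opposite to the gene and reads GGAAAAGCCC. The Tnfrsf9 start shown (chr4:150927749-150927998, plus strand) is the second of 2 annotated starts and holds both motifs. The Tnfrsf25 window (chr4:152115684-152115933, plus strand) is the first of 2 annotated starts. The other start of each gene holds no match to either motif.
Tnfrsf9: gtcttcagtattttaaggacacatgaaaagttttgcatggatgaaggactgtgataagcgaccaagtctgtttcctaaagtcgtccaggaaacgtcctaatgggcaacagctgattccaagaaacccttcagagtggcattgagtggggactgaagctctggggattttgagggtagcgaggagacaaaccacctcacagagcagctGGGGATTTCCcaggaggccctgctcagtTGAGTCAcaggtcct
Tnfrsf25: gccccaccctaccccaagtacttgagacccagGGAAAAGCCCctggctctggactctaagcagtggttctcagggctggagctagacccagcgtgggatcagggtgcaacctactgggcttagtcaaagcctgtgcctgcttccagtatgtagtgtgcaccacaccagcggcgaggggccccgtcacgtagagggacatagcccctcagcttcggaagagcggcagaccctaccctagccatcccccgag

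Tnfrsf9, the co-stimulatory receptor CD137 of activated T and NK cells, stood out among the 8 receptors of lymphocytes. It had 15.8 and 9.01 CPM in H7 tumours, 12.1 and 10.5 CPM in UNKC tumours, and no read in either normal library. H7 tumours were at least 8.65-fold higher (adjusted p = 0.00207) and at least 8.04-fold higher in UNKC tumours (adjusted p = 0.00242), and the 2 tumours overlapped. Its ligand Tnfsf9 had 3.98 and 2.90 CPM in H7, 4.62 and 3.63 CPM in UNKC and no read in normal libraries. The ligand was at least 2.42-fold higher in H7 (adjusted p = 0.00819) and at least 2.94-fold higher in UNKC tumours (adjusted p = 0.00685). Receptor and ligand were thus both called in both tumours. The 8 T and NK cell markers summed to 8.51 and 11.999 CPM in H7 tumours, to 23.1 and 25.1 CPM in UNKC tumours and to 4.63 and 4.77 CPM in normal pancreas, where Cd3d, Ncr1 and Klrb1c had no read. Their part in the result was not tested.

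The other lymphocyte receptors were scarce in every group. Tnfrsf8, the CD30 receptor of activated lymphocytes, had 0.0579 and 0.0770 CPM in H7, 0.0775 and 0.164 CPM in UNKC and 1.85 and 0.954 CPM in normal libraries. It was the 1 receptor lower in both tumours, 20.7-fold in H7 (95% counting interval 3.22 to 106, adjusted p = 0.0126) and 11.8-fold in UNKC tumours (2.02 to 42.6, adjusted p = 0.0221), from 4 and 2 reads in normal pancreas. Both calls were lost without normal library 1 (adjusted p = 0.133 and 0.197, the highest of the settings run, with lowest values of 1.56e-05 and 0.000187), and the UNKC call also without normal library 2 or UNKC tumour 1. Cd27, which binds CD70 on T cells, had 0.539 to 0.919 CPM in tumours against 2.78 and 1.43 in normal libraries and did not pass (adjusted p = 0.0694 and 0.116). Other settings did call it lower: DESeq2 in both tumours and halved counts in H7 tumours. So does the authors' deposited table in H7 tumours (log2 -1.48, adjusted p = 0.0403), which holds no H7 value for Tnfrsf8 or Lta. Cd40, the receptor of antigen-presenting cells, had 2.29 to 3.22 CPM in tumours and 1.85 and 0.954 CPM in normal libraries. Tnfrsf4 and Tnfrsf18, the OX40 and GITR receptors of regulatory T cells, had 0.405 to 0.656 and 0.825 to 1.28 CPM in tumours, with normal libraries overlapping them. The B cell receptors Tnfrsf13b and Tnfrsf13c stayed below 0.5 CPM in the 4 tumour libraries. In normal libraries Tnfrsf13b had no read and Tnfrsf13c had 0 and 2.86 CPM. B and plasma cell markers fell as Tnfrsf8 did: 7 of 8 fell in H7 and 6 in UNKC tumours. Of all genes tested, 21.9% (H7) and 19.3% (UNKC) fell. The marker sums were 305 and 395 CPM in normal, 9.08 and 11.2 CPM in H7 and 22.8 and 6.67 CPM in UNKC libraries. None of the markers was at 0 in any group. The part of these markers in the result was not tested.

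The 4 receptors without a full signalling domain included 2 that differed between the tumour lines, beside 18.2% of all genes tested. Tnfrsf22 and Tnfrsf23, mouse decoy receptors that bind TRAIL and lack a death domain, lie side by side with Tnfrsf26 on chromosome 7 (GRCm38, 143607685 to 143686436). Tnfrsf23 had 4.71 and 4.85 CPM in H7 tumours, 52.4 and 45.9 CPM in UNKC tumours, and 1.85 and 0 CPM in normal pancreas. It was 10.3-fold higher in UNKC than in H7 tumours (log2 H7 minus UNKC -3.36 ± 0.44, adjusted p = 0.00428). Against its 4 normal reads it was 52.4-fold higher in UNKC tumours (counting interval 14.5 to 433, adjusted p = 0.000823) and 5.09-fold higher in H7 tumours (1.40 to 42.3, adjusted p = 0.0389), and the H7 call was lost in 7 of 14 other settings, among them those without each of the 4 tumour libraries (adjusted p from 0.000885 to 0.104). The authors' deposited table gives log2 fold changes of 5.18 for UNKC and 1.47 for H7 against normal, the latter with an adjusted p of 0.0913.

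Tnfrsf22 followed the same order. It had 3.05 and 2.54 CPM in H7, 14.7 and 12.8 CPM in UNKC and no read in normal libraries. The level was 4.96-fold higher in UNKC than in H7 tumours (log2 H7 minus UNKC -2.30 ± 0.24, adjusted p = 0.00500). It was at least 9.79-fold higher in UNKC tumours (adjusted p = 0.000738) and, in H7 tumours, at least 1.97-fold higher (adjusted p = 0.00399) than in normal pancreas. Tnfrsf26, the third gene of the cluster, had 0.319 and 0.539 CPM in H7 and 1.10 and 1.28 CPM in UNKC libraries with no normal read, and its difference of -1.46 ± 0.44 did not pass (adjusted p = 0.0861). Of the 50-base stretches of their longest coding transcripts, 29.9% of Tnfrsf23 and 28.1% of Tnfrsf22 also occur in other genes, those of Tnfrsf23 all in Tnfrsf22. How reads matching both were counted is not given in the sources used here, so the split of counts between the 2 genes is uncertain.

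Within 300 kb of Tnfrsf23, 9 genes outside the family were tested and 2 differed between the tumour lines, beside 18.2% of all genes tested. Slc22a18, a transporter gene, had 0.853 CPM in H7 and 2.70 CPM in UNKC tumours (log2 H7 minus UNKC -1.66 ± 0.33, adjusted p = 0.0205). Dhcr7, which makes cholesterol from its last precursor, went the other way at 17.9 and 7.69 CPM (1.22 ± 0.30, adjusted p = 0.0408). The nearest genes on each side did not pass: Osbpl5 had a difference of 0.25 (adjusted p = 0.285) and Cars one of -0.66 (adjusted p = 0.0724). Beyond Cars, Cdkn1c (-1.89), Phlda2 (-1.59) and Nap1l4 (-0.40) did not pass either. Nor did Mrgpre (-0.04) and Nadsyn1 (0.40) beyond Osbpl5. Tnfrsf11b, the secreted decoy osteoprotegerin on another chromosome, had 6.23 and 7.13 CPM in H7, 6.44 and 4.11 CPM in UNKC and 5.55 and 1.91 CPM in normal libraries and passed in no comparison.

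**Figure D3:**
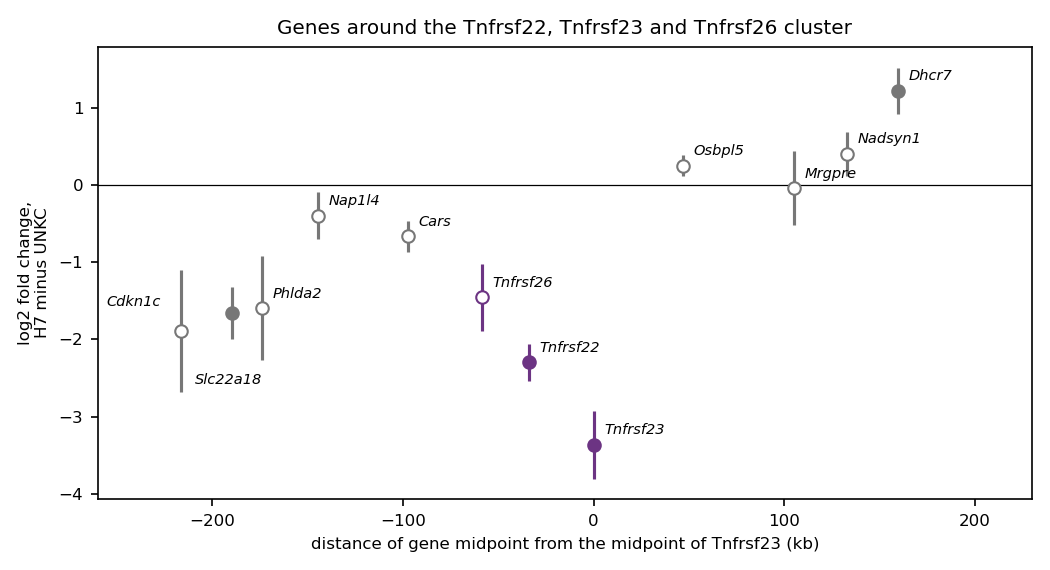
Log2 difference H7 minus UNKC of the genes within 300 kb of Tnfrsf23, by distance of their centre from that gene (points with standard errors, family members in colour, filled where the test was passed). Tnfrsf23 at -3.36 and Tnfrsf22 at -2.30 lie lowest, while Osbpl5 on the far side of Tnfrsf23 lies at 0.25.

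The promoters of the most abundant receptor per kilobase and of the decoy that differed most between the tumours are printed next. Tnfrsf12a (chr17:23677450-23677699, minus strand) holds none of the 3 motifs searched. Tnfrsf23 (chr7:143685876-143686125, minus strand) holds the TATA-box letters TATAAA only on the strand opposite to the gene, so the marked stretch reads TTTATA. These letters were found on either strand in 5 members (Lta, Tnf, Tnfrsf23, Tnfsf11 and Tnfsf18) and in 12.4% of all promoters of this length.
Tnfrsf12a: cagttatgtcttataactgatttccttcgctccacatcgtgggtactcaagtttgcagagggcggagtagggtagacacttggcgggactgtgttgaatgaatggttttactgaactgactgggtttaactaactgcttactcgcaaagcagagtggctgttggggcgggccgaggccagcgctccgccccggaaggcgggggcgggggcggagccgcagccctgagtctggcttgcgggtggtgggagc
Tnfrsf23: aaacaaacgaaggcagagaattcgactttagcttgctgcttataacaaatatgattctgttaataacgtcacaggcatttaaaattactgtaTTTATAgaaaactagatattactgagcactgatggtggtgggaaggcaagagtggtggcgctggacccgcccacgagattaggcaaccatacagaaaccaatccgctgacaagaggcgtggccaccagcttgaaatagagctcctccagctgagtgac

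Of the 3 classical ligands, none passed as higher in either tumour and Lta fell in H7 tumours. Tnf, made mainly by macrophages and T cells, had 2.20 and 1.99 CPM in H7, 1.36 and 0.749 CPM in UNKC and 0 and 1.91 CPM in normal libraries. With 4 normal reads in all, its H7 ratio of 2.22 had a counting interval of 0.607 to 18.6. Lta, lymphotoxin alpha of lymphocytes, had 0.0290 and 0.0385 CPM in H7, 0.221 and 0.164 CPM in UNKC and 0.925 and 0.954 CPM in normal libraries. The 3 groups did not overlap. Against normal pancreas it was 27.6-fold lower in H7 tumours (counting interval 1.92 to 201, adjusted p = 0.00729) and 5.69-fold lower in H7 than in UNKC tumours (1.37 to 25.2, adjusted p = 0.0294), from 2 and 3 reads in the H7 libraries. The normal level of Lta rests on only 2 reads in each library. The call against normal was lost without either normal library (adjusted p from 3.99e-05 to 0.0552 over the settings run). The call against UNKC tumours was lost without any 1 of the 6 libraries (adjusted p from 0.0118 to 0.223 over the settings run). Ltb, its membrane partner, had 1.51 and 2.25 CPM in H7, 3.43 and 2.12 CPM in UNKC and 3.70 and 3.82 CPM in normal libraries and did not pass. Lta and Ltb thus sat with the B cell markers given above in being highest in normal pancreas, and the part of those markers was not tested.

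The death ligands did not pass against normal. Tnfsf10, the ligand TRAIL of Tnfrsf10b, Tnfrsf22 and Tnfrsf23, had 9.73 and 13.02 CPM in H7, 12.2 and 11.9 CPM in UNKC and 11.1 and 14.3 CPM in normal libraries. All 3 groups overlapped, with log2 differences from normal of -0.16 ± 0.24 in H7 and -0.08 ± 0.24 in UNKC tumours (adjusted p = 0.611 and 0.810), while Tnfrsf10b, Tnfrsf22 and Tnfrsf23 were called higher in both tumours. Tnfsf12, the TWEAK ligand of Tnfrsf12a, had 0.550 and 0.513 CPM in H7, 2.14 and 2.70 CPM in UNKC and 0 and 1.91 CPM in normal libraries. It was 4.55-fold lower in H7 than in UNKC tumours (log2 -2.18 ± 0.53, adjusted p = 0.0347).

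The 2 ligands of B cells and bone differed between the tumours in opposite directions, where 18.2% of all genes tested differed. Tnfsf13, the ligand APRIL of plasma cells, had 1.67 and 1.59 CPM in H7 tumours, 0.543 and 0.328 CPM in UNKC tumours and no read in normal pancreas. It was 3.71-fold higher in H7 than in UNKC tumours (log2 1.89 ± 0.42, adjusted p = 0.0392) and at least 1.15-fold higher than in normal pancreas (adjusted p = 0.0403), a call lost in 9 of 14 other settings, among them the 6 that leave out a library (adjusted p from 0.0152 to 0.102). Tnfsf11, the RANK ligand, had 0.145 and 0.257 CPM in H7, 1.10 and 0.937 CPM in UNKC and no read in normal libraries. It was 4.99-fold lower in H7 than in UNKC tumours (log2 -2.32 ± 0.47, adjusted p = 0.0322). Tnfsf12 and Tnfsf13 are neighbours on chromosome 11 (GRCm38, 69682032 to 69696098) and share 49.0% and 51.9% of their 50-base stretches with the read-through gene Tnfsfm13, so their counts are uncertain. The antisense transcript Tnfsf13os overlaps the spans of both by 2978 bases of Tnfsf13 and 4902 bases of Tnfsf12. It had 0.608 and 0.616 CPM in H7 and 0.155 and 0.222 CPM in UNKC libraries (log2 1.69 ± 0.56, adjusted p = 0.0796), the same direction as Tnfsf13, and without strand its reads cannot be told apart from those of the genes it overlaps.

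Of the 6 co-stimulatory ligands, Tnfsf9 rose as given above and Tnfsf15 fell in UNKC tumours. Tnfsf15, the TL1A ligand of Tnfrsf25 known from endothelium and myeloid cells, had 1.33 and 1.54 CPM in H7, 0.532 and 0.574 CPM in UNKC and 5.55 and 1.91 CPM in normal libraries. All 3 groups were separate, with UNKC lowest. The UNKC level was 6.81-fold lower than normal (log2 -2.76 ± 0.58, adjusted p = 0.00999), and the call was lost without normal library 1 (log2 -1.76, adjusted p = 0.0694, over 14 settings from 1.24e-07 to 0.0694). Tnfsf15 did not pass between H7 tumours and normal pancreas (adjusted p = 0.0796) or between H7 and UNKC tumours (adjusted p = 0.0705). Mean levels of receptor and ligand of this pair were both lowest in UNKC tumours, but only the receptor was called between the tumours. Endothelial markers summed to 103 and 114 CPM in normal, 44.9 and 63.7 CPM in H7 and 79.1 and 125 CPM in UNKC libraries, and their part was not tested. Tnfsf14, Tnfsf18, Tnfsf4 and Tnfsf8, which bind receptors of T cells, ranged from 0.0579 to 1.82 CPM in tumours and passed in no comparison.

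Set directly against each other, the tumours differed in 7 members: 2 were higher in H7 (Tnfrsf25 and Tnfsf13) and 5 higher in UNKC tumours (Tnfrsf23, Tnfrsf22, Lta, Tnfsf11 and Tnfsf12). These are 5.13% and 12.8% of the members, beside 7.06% and 11.1% of all genes tested (18.2% in either direction). Libraries of the 2 lines did not overlap for 27 members, where 70.4% of all genes did not. Per kilobase, the level of Tnfrsf23 was 14.97 CPM per kb in UNKC tumours, close to Tnfrsf1a at 15.2 there, and 1.46 in H7 tumours. All 7 calls were lost when H7 tumour 1 was left out (adjusted p from 0.0724 to 0.253), with log2 differences from -3.32 to 2.94. All except that of Tnfrsf25 were lost without H7 tumour 2, where that of Tnfrsf23 was -3.38 (adjusted p = 0.0518). Without either UNKC library the calls of Tnfrsf23 and Tnfrsf22 held and the other 5 were lost. Cell markers differed too: ductal and epithelial markers summed to 1110 and 928 CPM in UNKC and 419 and 397 CPM in H7 tumours, and fibroblast markers to 2499 and 4145 CPM in UNKC and 955 and 1799 CPM in H7 tumours. The fibroblast sum is mostly collagen: of its 7 markers 3 were called higher in H7 and 0 in UNKC tumours, with mean levels in H7 and UNKC tumours of 261 against 74.2 CPM for Dcn, 133 against 32.1 CPM for Pdgfra and 183 against 34.2 CPM for Pdgfrb. The part of these cell markers in the 7 differences was not tested.

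**Figure D4:**
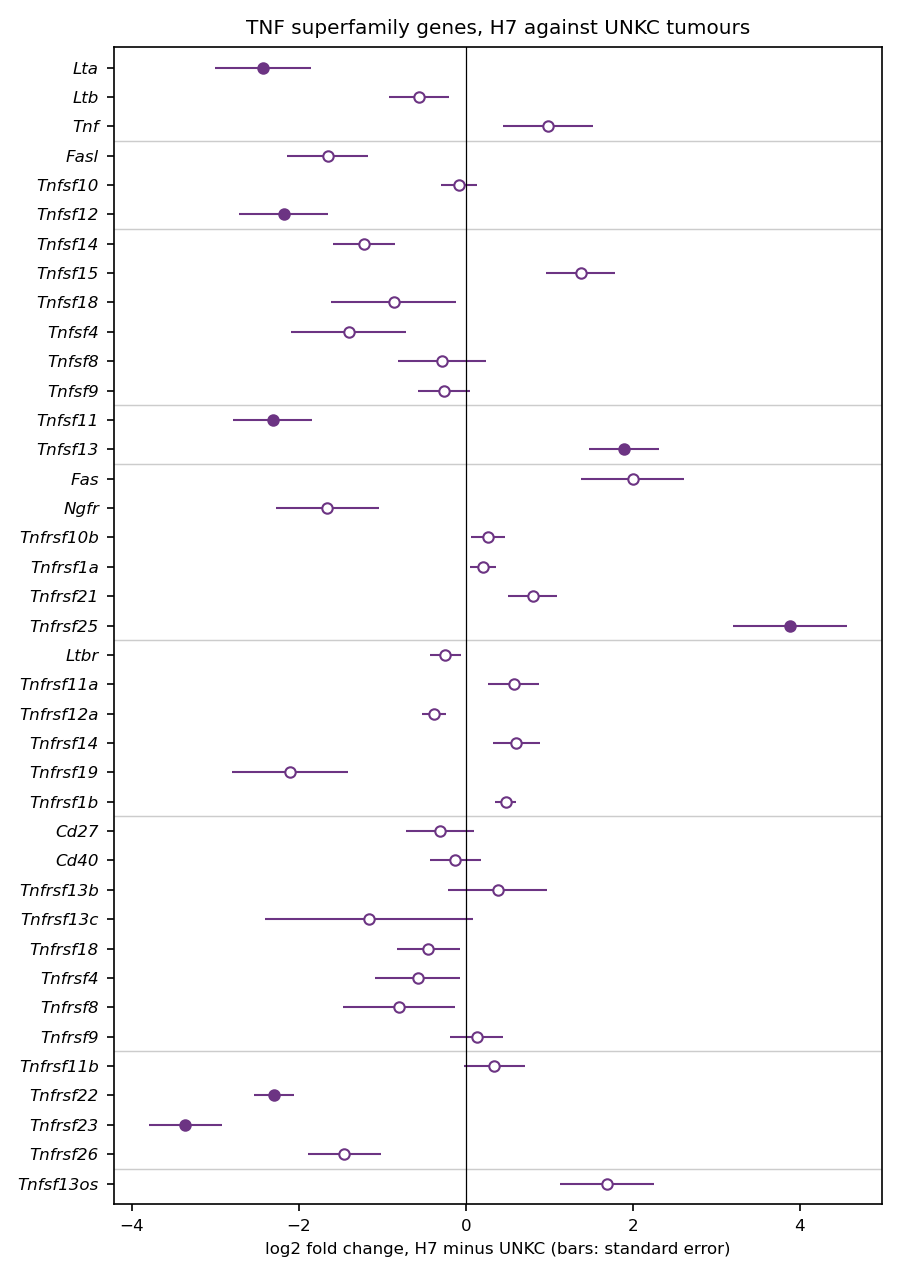
Log2 fold change of each member between the tumour lines, H7 minus UNKC (filled points passed the test, bars are standard errors, rows grouped by class). The 7 filled points run from Tnfrsf23 at -3.36, with 4.78 CPM in H7 and 49.2 CPM in UNKC tumours, to Tnfrsf25 at 3.88, with 2.64 and 0.176 CPM.

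Downstream of the receptors, a list of 41 genes of TNF family signalling was read. Of these, 18 rose and 4 fell in H7 tumours against normal, and 20 rose and 5 fell in UNKC tumours, which is 43.9% and 48.8% rising beside the 29.6% and 29.1% of all genes tested. The median log2 difference was 0.63 and 0.70, beside 0.34 and 0.42 for all genes. Of the death receptor complex, 7 of 9 genes rose in each tumour, among them the adaptors Tradd and Fadd, the kinase Ripk1 and Cflar, which restrains caspase 8. Bid, which links caspase 8 to mitochondria, rose by 2.84 ± 0.51 in H7 and 2.25 ± 0.52 in UNKC tumours (adjusted p = 0.00523 and 0.0140) on the log2 scale. Mlkl, the effector of necroptosis, had 24.8 ± 7.89 CPM (SD) in H7, 18.3 ± 1.58 in UNKC and 7.78 ± 2.49 in normal libraries. Its rise was 1.67 ± 0.33 and 1.24 ± 0.33 (adjusted p = 0.00722 and 0.0237). Tnfaip3, the A20 brake on NF-kB, rose in UNKC tumours by 1.75 ± 0.43 (adjusted p = 0.0182) and had 24.4 ± 0.147 CPM there against 7.22 ± 5.49 in normal libraries.

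Of 8 NF-kB subunits and inhibitors, 5 rose in each tumour and none fell, beside 29.6% (H7) and 29.1% (UNKC) of all genes tested that rose. Relb, the subunit activated downstream of Ltbr and Tnfrsf12a in the non-canonical pathway, had 9.45 ± 0.314 CPM in H7, 13.8 ± 2.26 in UNKC and 1.17 ± 0.307 in normal libraries. Its ratio to normal was 8.03 in H7 (counting interval 2.28 to 32.6, adjusted p = 0.000735) and 11.8 in UNKC tumours (3.36 to 47.8, adjusted p = 0.000417). Rela, Nfkb1, Nfkb2 and Nfkbie were the other risers, by 0.66 to 1.44 on the log2 scale. Of 6 TRAF adaptors, 3 (Traf3, Traf4 and Traf6) rose in each tumour. The largest falls were of genes that act between receptor and NF-kB. In H7 tumours Birc3, a ubiquitin ligase bound to TRAF2, fell by 1.51 (SE 0.26, adjusted p = 0.00451), the kinase Ikbkb fell by 1.40 (SE 0.18, adjusted p = 0.00152) and Tank fell by 0.93 (SE 0.15, adjusted p = 0.00368). In UNKC tumours Tank fell by 1.24 (SE 0.15), Traf5 fell by 1.23 (SE 0.31) and the kinase Chuk fell by 1.20 (SE 0.18), with adjusted p of 0.00138, 0.0185 and 0.00282.

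Between the tumours, 3 signalling genes were higher in H7 and 5 in UNKC tumours, which is 7.32% and 12.2% of the list beside 7.06% and 11.1% of all genes. The kinase Chuk was higher in H7 by 1.05 ± 0.18 (adjusted p = 0.0123), Traf5 by 0.97 ± 0.25 (adjusted p = 0.0455) and the deubiquitinase Cyld by 0.86 ± 0.12 (adjusted p = 0.00648) on the log2 scale. The adaptor Traf1 (-1.92 ± 0.28, adjusted p = 0.00767), Birc3 (-1.02 ± 0.24, adjusted p = 0.0358) and Tnip1, a partner of A20 (-0.91 ± 0.15, adjusted p = 0.0120), were higher in UNKC tumours. None of the 8 passed when H7 tumour 1 or H7 tumour 2 was left out.

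**Figure D5:**
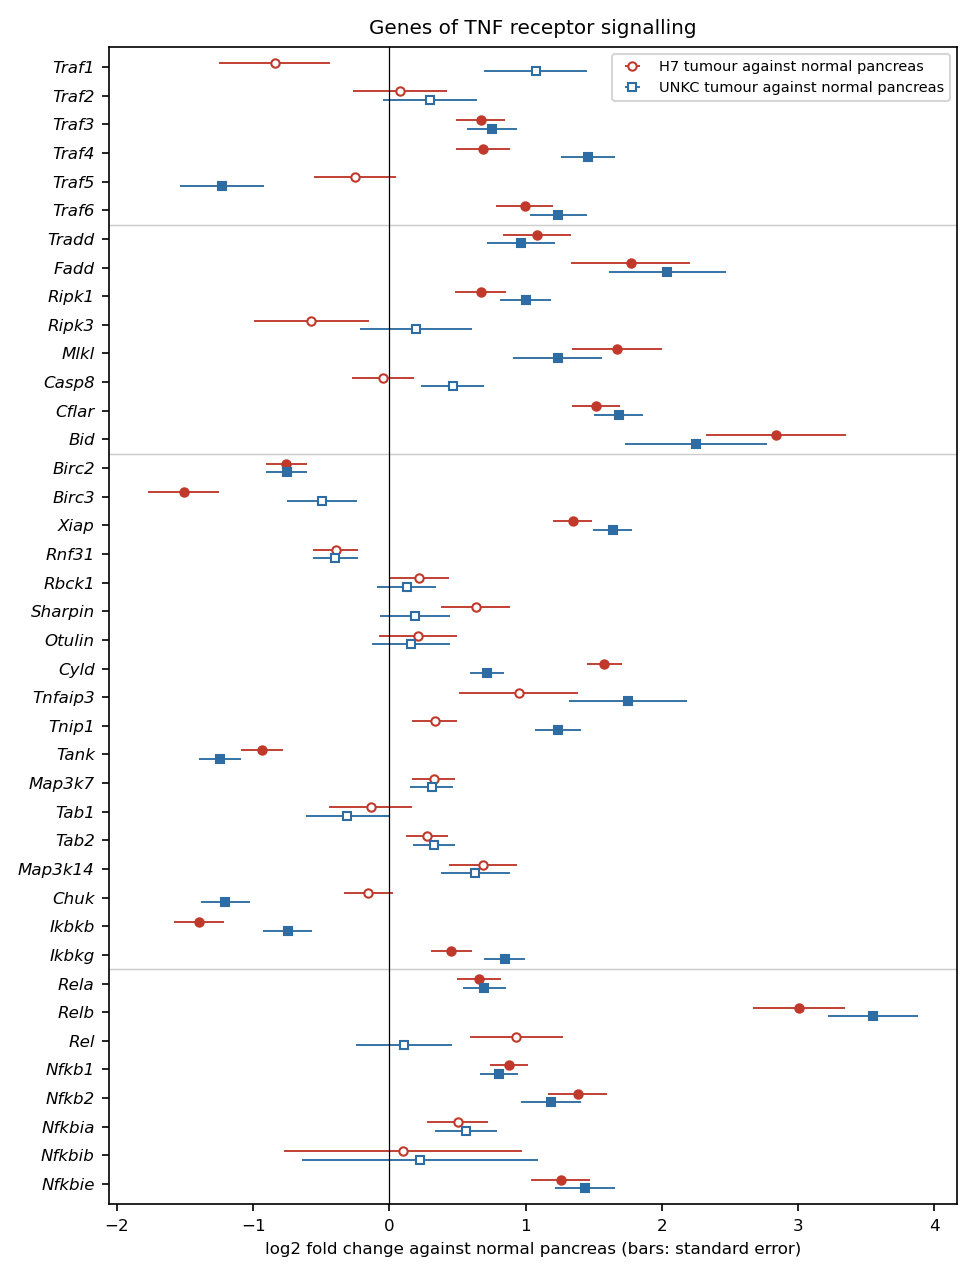
Log2 fold change against normal pancreas of 40 of the 41 signalling genes in H7 and UNKC tumours (filled points passed the test, bars are standard errors, genes grouped by their place in the pathway). Relb and Bid lie farthest to the right in both tumours, and Tank lies left of 0 in both.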

How the data were processed

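Total RNA of 6 mouse libraries was sequenced. Per the submitters' processing notes, the authors used STAR for alignment to mm10, featureCounts for counting and DESeq2 1.18.1 for testing. For every library the deposited values are unnormalized counts of reads, 1 row per gene ID. The authors' 2 comparison tables add TPM, p-values and log2 fold changes, all computed by the authors. Of 27179 gene IDs, 16265 took their names from these tables and 9376 from RefSeq, and 1538 had none. Counts held both mates of a pair (1.98 to 2.00 times the fragments tabulated by the authors), so low counts carry about as much information as their number of pairs. Strand, sex, batch and mouse of origin are not stated; p-values therefore measure the spread between these samples, which may be technical.

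Counts were fitted with edgeR 4.0.16 in R 4.3.3 (filterByExpr, TMM, quasi-likelihood, all 6 libraries sharing one spread; threshold 0.05), with DESeq2 1.42.0 as an alternative. Errors after ± are SE for fold changes and SD for levels. A group without a read was set to a floor of 3 read pairs to bound the fold; with 1 to 3 pairs a fold has a 95% exact binomial interval on pairs. Intervals and floors cover counting error only. Lengths are those of the authors' tables. Scripts were tested on simulated data. Python 3.11.15, pandas 2.3.3, SciPy 1.17.1 and matplotlib 3.10.9 made tables and figures.

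The members, the gene lists, the tests and the 14 alternative settings were chosen with earlier results of these data known. Members past the threshold whose higher group reached 5 CPM, up to 10 per comparison, and their ligand or receptor partners were described in full. Of the signalling list the 3 largest rises and falls were named under the same minimum. Other members were given by value or range. In the signalling list 1 gene is counted but not reported here by name or value.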

Additional observations from a re-analysis of the deposited data

Results flagged for a closer look

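The direct test of H7 against UNKC tumours is also the test of whether the 2 lines differ in their change from the shared normal pancreas. It was passed by 7 members of the family, with log2 differences (H7 minus UNKC) of -3.36 for Tnfrsf23, -2.43 for Lta, -2.32 for Tnfsf11, -2.30 for Tnfrsf22, -2.18 for Tnfsf12, 1.89 for Tnfsf13 and 3.88 for Tnfrsf25. Among the signalling genes reported it was passed by Traf1 (-1.92), Birc3 (-1.02), Tnip1 (-0.91), Traf4 (-0.77), Cyld (0.86), Traf5 (0.97) and Chuk (1.05). Traf4 and Cyld rose in both tumours by different amounts, and Birc3 fell in H7 tumours. Groups of 2 libraries were too small for a search for single outlying libraries.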

How the results depend on the processing

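Each result was recomputed under 14 settings. Tnfrsf1a, Tnfrsf1b, Ltbr, Tnfrsf10b, Tnfrsf9, Tnfrsf12a, Tnfrsf22 and Tnfsf9 stayed called higher in both tumours under all 14, as did Tnfrsf21 in H7 and Tnfrsf23 in UNKC tumours. The counts of members higher against normal stayed within 1.5 times, at 9 to 12 in H7 and 9 to 13 in UNKC tumours when 1 library was left out. Other counts moved, and the cause was not tested. In some settings fewer libraries or genes entered. With DESeq2, 5 members were lower in each tumour against normal. Between the tumours DESeq2 called 8 members and 7 signalling genes higher in H7, 9 signalling genes lower, and 5409 of all genes in either direction. With only the 4 libraries compared, no member (0) was lower in H7 against normal, where Lta and Tnfrsf8 were not tested, and 11 signalling genes were higher; against UNKC tumours 7 members and 5 signalling genes were higher in H7, 8 signalling genes lower and 4815 of all genes called. Halved counts gave 1 member lower in H7 against normal, Cd27, which was not called in the main fit, while Lta and Tnfrsf8 were not tested there. They also gave 4 members higher in H7 than in UNKC tumours, where upper-quartile scaling gave 5. Leaving out 1 library gave 0 to 2 members lower and 3 to 7 signalling genes lower in H7 against normal, and 1 to 3 members and 2 to 8 signalling genes lower in UNKC against normal. Between the tumours it gave 0 to 7 members higher and 0 to 4 lower in H7, 0 to 5 signalling genes higher and 0 to 8 lower, and 562 to 4615 of all genes.

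Some uncalled directions turned, and the cause was not tested. Against normal with 1 library left out, the log2 difference ran in H7 tumours from -0.36 to 0.10 for Tnfsf10, from -1.81 to 8.12 for Tnfsf12 and from -0.020 to 3.40 for Fas. In UNKC tumours it ran from -0.83 to 9.10 for Tnf, from -0.23 to 0.15 for Tnfsf10, from -0.30 to 0.23 for Tnfsf14 and from -2.02 to 1.40 for Fas. Between the tumours Tnfsf10 ran from -0.31 to 0.14. In UNKC tumours Tnf was -0.030 with median-of-ratios factors, -0.028 with DESeq2 and -0.19 with upper-quartile factors, and with no filter Tnfsf10 was 0.019 and Tnfsf14 0.063. The fitted value of a gene without a read in the remaining normal library depends on the prior count. The median log2 difference of all genes from normal was 0.34 and 0.42 with TMM and -0.01 and 0.05 with upper-quartile factors.

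Whether replicate numbers pair samples is not stated in the labels. The numbers were not taken as pairs because no pairing is stated. Deviations of same-numbered libraries correlated at 0.53 between the tumours and at -0.01 and -0.02 with normal pancreas. Both tumour libraries numbered 2 held the skeletal muscle markers, at 576 CPM in H7 and 2086 CPM in UNKC tumours. The part of these markers in the correlation of 0.53 was not tested. With the replicate number as a block, 11 members were higher and 2 lower in H7, 10 and 2 in UNKC against normal, and 3 and 5 between the tumours; 7973, 7459 and 3212 of all genes were called. The normal libraries limit every fold against them: 12 members had no read there.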
